A study of Mus musculus with 9 samples.

Results

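The MYC, MAX and MXD network was read from 8 genes, namely Myc, Max, Mxd1, Mxd3, Mxd4, Mxi1, Mnt and Mga, in RNA from the mouse macrophage cell line RAW264.7, which was derived from a tumour induced by the Abelson leukaemia virus and forms osteoclast-like cells under RANKL. The genes were picked out of the deposited table by symbol, and all 8 were found among its 56691 genes. The cultures were sequenced at day 3 in 3 groups of 3 libraries: untreated control cells, cells given the osteoclast-inducing cytokine RANKL, and cells given RANKL together with uridine (UD), whose dose is not given in the labels. All libraries came from the same cell line, and the labels name each a replicate biosample without saying whether it was a separate culture. Levels are given as FPKM, the number of reads of a gene per kilobase of its exons, scaled to the reads counted in the library.

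MYC is a transcription factor that binds DNA only as a pair with MAX, most often at the letters CACGTG, called an E-box. MYC-MAX recruits histone acetyltransferases and raises genes of ribosome production, nucleotide synthesis, glycolysis and cell division. The MXD proteins (MXD1, MXD3, MXD4 and MXI1) and MNT also pair with MAX, occupy the same letters and recruit the SIN3 corepressor with its histone deacetylases, so that they oppose MYC. MGA is a further MAX partner and belongs to a polycomb repressor complex. In many lineages MYC is high in dividing precursors, and MXD genes rise as cells mature.

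Myc differed most among the members. It was below 1 FPKM in control cells, was higher in every RANKL library, and was lower again with UD without returning to the control level. Of the genes of its antagonists, Mxi1 and Mxd1 were also highest with RANKL, and Mxi1, Mxd1, Mxd4 and Mnt were each lowest with RANKL + UD on FPKM. For Mxd1, the difference of RANKL + UD from control did not pass. The groups overlapped for Max, the shared partner.

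The defining markers of the cells were checked before these results. The 8 macrophage markers, such as Adgre1, summed to 9377 to 9974 FPKM in control, 2500 to 2747 with RANKL and 2178 to 2311 with RANKL + UD. Most of this sum was Lyz2, at means of 8000, 1431 and 1285 FPKM. Of the 7 tested, 6 were called lower in RANKL than in control and 1, Cd68, higher (log2 difference 0.60). With UD against RANKL, 6 were lower and Adgre1 was higher (0.22, edgeR adjusted p = 0.0142). The 10 osteoclast markers, such as Acp5, summed to 57.6 to 60.3, 2715 to 2920 and 1724 to 1761 FPKM. Of 5 dendritic, 6 lymphoid, 6 stromal and 5 epithelial or endothelial markers, the sums reached at most 1.50, 0.29, 1.20 and 0.45 FPKM. Of these markers, 1 dendritic, 4 lymphoid, 0 stromal and 1 epithelial or endothelial gene were at 0 in all libraries. In such bulk RNA, fewer cells of a type and less RNA per cell cannot be told apart. The part of this shift in cell state in the differences of the network was not tested. Total counts were 15951800 to 19746862. The libraries were scaled by TMM, and 11995 genes that reached 1 FPKM in 3 or more libraries were tested by edgeR's quasi-likelihood test and called at an adjusted p under 0.05. By TMM, 3278 genes were called higher and 3628 lower in RANKL against control, and 2233 higher and 2418 lower in RANKL + UD against RANKL. Without TMM, on total counts, these were 2579 and 4421, and 3350 and 1707. The median log2 difference of all genes moved by -0.0882 and 0.0862 between these scalings. TMM factors were 0.959 to 0.962 in the RANKL libraries and 1.014 to 1.026 in the others. Whether libraries overlap is stated on FPKM, which follows total counts and lacks the TMM scaling of the tests.

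Myc (ENSMUSG00000022346, listed on chromosome 15 from 61857240 to 61862223, plus strand) stood at 0.83, 0.73 and 0.74 FPKM in the control libraries, from 32 to 39 reads each. In the RANKL libraries it was 36.14, 35.17 and 37.45 FPKM, and in the RANKL + UD libraries 14.77, 13.18 and 14.08 FPKM. The 3 groups did not overlap, and the RANKL + UD libraries lay between the others. The means were 0.767 ± 0.0551, 36.3 ± 1.14 and 14.0 ± 0.797 FPKM (SD, n = 3 each). By edgeR, RANKL was 50.3-fold above control (log2 difference 5.65 ± 0.10 SE, adjusted p = 1.31e-20). RANKL + UD was 63.6% below RANKL (log2 difference -1.46 ± 0.07 SE, adjusted p = 1.59e-12), and still 18.3-fold above control (log2 difference 4.20 ± 0.11 SE, adjusted p = 5e-18). Myc passed the expression filter only through the RANKL and RANKL + UD libraries, so a difference from control was built into its being tested. The comparisons RANKL against control and RANKL + UD against RANKL share the RANKL libraries, so their values are not independent.

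Max (ENSMUSG00000059436, chromosome 12, 76984043 to 77008975, minus strand), the partner that MYC, the MXD proteins and MNT need to bind DNA, was at 31.76, 32.93 and 30.86 FPKM in control. It was at 31.14, 28.47 and 31.98 FPKM with RANKL and at 34.60, 31.06 and 30.49 FPKM with RANKL + UD. The groups overlapped in every comparison. The log2 difference was 0.03 for RANKL against control (95% interval -0.09 to 0.14, edgeR adjusted p = 0.736) and -0.01 for RANKL + UD against RANKL (-0.13 to 0.10, adjusted p = 0.877). Against control, RANKL + UD gave 0.01 (-0.11 to 0.13, adjusted p = 0.894). Larger changes of Max than these bounds lay outside the intervals. On total counts the differences were -0.06, 0.07 and 0.01, with the sign of the first and second turned. Max shares 1319 bases with the same-strand gene Gm47218, which reached 2.39 FPKM at most.

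**Figure D1:**
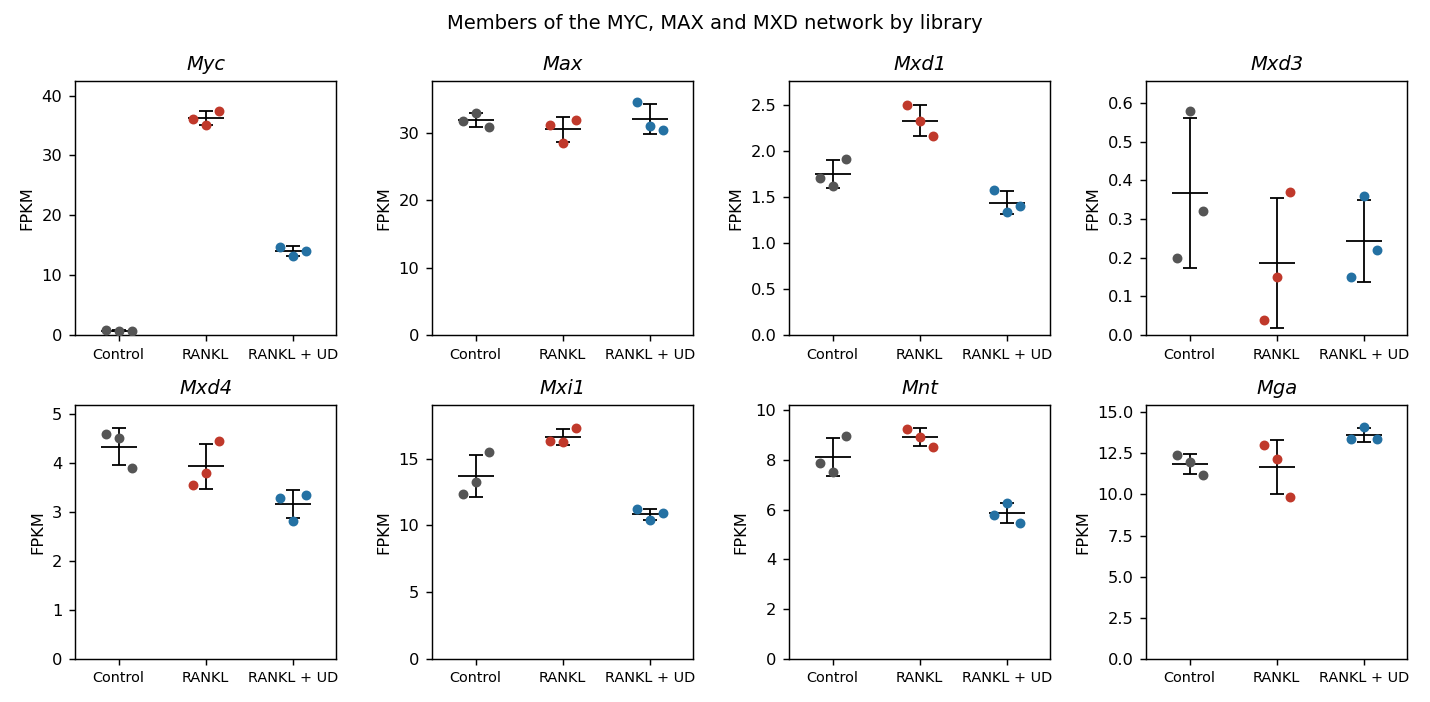
FPKM of each of the 8 members (y axis, from 0, its own scale per gene) in control, RANKL and RANKL + UD libraries (x axis); points are single libraries, horizontal lines the mean and bars ± 1 SD of 3 libraries. Myc lay between 0.73 and 0.83 FPKM in control and between 35.17 and 37.45 FPKM with RANKL, Mxi1 and Mxd1 were highest with RANKL, and both were lowest with RANKL + UD, as Mnt and Mxd4 were, while the Max groups overlapped.

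Of the 7 members tested, 4 (Myc, Mxd1, Mxi1 and Mnt) were called higher in RANKL than in control, where 27.3% of all genes tested were called higher. By edgeR 0 were called lower, where 30.2% of all genes were, and 0 were lower at an unadjusted p under 0.05, by DESeq2 or by limma. Max, Mxd4 and Mga did not pass. In RANKL + UD against RANKL, 5 members (Myc, Mxd1, Mxd4, Mxi1 and Mnt) were called lower, beside 20.2% of all genes, and 0 higher, beside 18.6%. At an unadjusted p under 0.05, 0 members were higher by edgeR, and DESeq2 and limma also called 0 higher. Max and Mga did not pass by TMM, and on total counts Mga was called higher, beside 3350 of the 11995 genes tested. In RANKL + UD against control, Myc and Mga were called higher, beside 26.7% of all genes, and Mxd4, Mxi1 and Mnt lower, beside 27.3%. The median log2 difference over the 7 genes was 0.22, -0.69 and -0.27 in these 3 comparisons, beside -0.03, 0.0050 and -0.0021 over all genes tested. Of the tested members, only Myc passed the filter through groups where it was high, which built in its difference from control. These counts describe the genes and support nothing further.

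**Figure D2:**
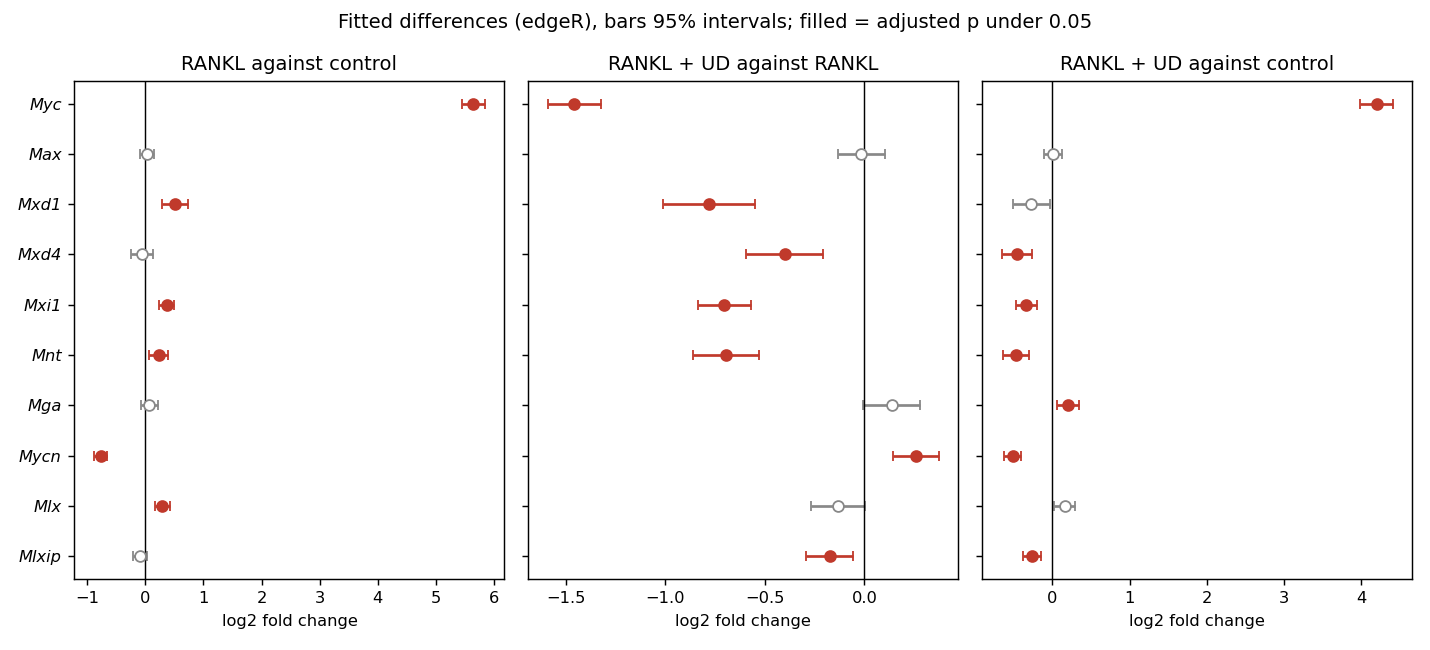
Fitted log2 difference (x axis, its own scale per panel) of the 7 tested members and 3 related factors (rows) in 3 comparisons of 3 against 3 libraries; bars are 95% intervals, and filled points passed an adjusted p of 0.05 in edgeR. Myc lies at 5.65, -1.46 and 4.20, and Mxd1, Mxd4, Mxi1 and Mnt lie below 0 in the middle panel.

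The 4 antagonist genes that were lower with UD are shown with their promoters, in which the letters bound by MYC-MAX and MXD-MAX were searched. The RefSeq promoter table (GRCm38.p6) held 7 of the 8 members with 9 windows, and Myc was the member without an entry. Shown are the 250 bases before the start of each gene, 5′ to 3′ on the strand of the gene, with an E-box match in capitals. These coordinates are of GRCm38.p6 and are not to be read against the gene spans above, whose build is not settled. For Mxi1, RefSeq gives 3 starts, and the second is shown.
Mnt, chr11:74830674-74830923, plus strand: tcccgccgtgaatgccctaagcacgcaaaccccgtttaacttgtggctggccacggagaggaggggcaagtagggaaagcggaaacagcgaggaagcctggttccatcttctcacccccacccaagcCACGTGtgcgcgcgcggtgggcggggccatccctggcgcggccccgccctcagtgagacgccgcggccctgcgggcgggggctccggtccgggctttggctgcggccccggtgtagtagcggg
Mxd4, chr5:34187711-34187960, minus strand: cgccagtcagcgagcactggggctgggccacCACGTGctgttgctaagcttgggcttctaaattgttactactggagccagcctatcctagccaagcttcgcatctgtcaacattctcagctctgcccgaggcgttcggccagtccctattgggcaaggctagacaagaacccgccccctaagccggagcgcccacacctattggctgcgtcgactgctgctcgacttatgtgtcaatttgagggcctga
Mxd1, chr6:86669160-86669409, minus strand: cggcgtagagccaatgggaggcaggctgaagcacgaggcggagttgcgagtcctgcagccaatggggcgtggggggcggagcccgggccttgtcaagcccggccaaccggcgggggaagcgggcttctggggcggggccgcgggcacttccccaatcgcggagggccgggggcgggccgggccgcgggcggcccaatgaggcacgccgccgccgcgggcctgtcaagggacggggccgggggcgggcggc
Mxi1, chr19:53329163-53329412, plus strand: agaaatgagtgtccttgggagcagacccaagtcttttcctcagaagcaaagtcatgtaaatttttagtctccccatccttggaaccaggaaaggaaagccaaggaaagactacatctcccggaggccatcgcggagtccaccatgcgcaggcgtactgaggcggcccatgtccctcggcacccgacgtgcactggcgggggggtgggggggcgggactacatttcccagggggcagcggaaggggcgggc
The E-box CACGTG lay at -123 in Mnt and at -219 in Mxd4, counted from the start to its first base, and was not in the windows of Mxd1 or Mxi1. On both strands, it was found in 2 of the 9 member windows and in 6.02% of all 32851 windows of this length in the table. The FoxO letters GTAAACA were in 1 of the 9 member windows, at -231 before the third Mxi1 start, and in 3.17% of all windows. The AP-1 letters TGANTCA were in 0 of the 9 and in 6.75% of all windows. The 2 genes with an E-box and the 2 without it were all lower with UD. A match is only a run of letters, and no binding was measured.

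Mxi1 (ENSMUSG00000025025, chromosome 19, 53298949 to 53364241, plus strand) was the most abundant MXD gene. It was at 12.39, 13.29 and 15.48 FPKM in control, 16.30, 16.29 and 17.29 FPKM with RANKL, and 11.20, 10.37 and 10.92 FPKM with RANKL + UD. Every RANKL library was above every control library, and every RANKL + UD library below both groups. RANKL was higher than control by 0.37 ± 0.07 (log2, SE; edgeR adjusted p = 8.33e-05). RANKL + UD was below RANKL by a log2 difference of -0.70 ± 0.07 (adjusted p = 6.13e-08) and below control by -0.34 ± 0.07 (adjusted p = 0.000286).

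Mxd1 (ENSMUSG00000001156, chromosome 6, 86624024 to 86646143, minus strand), an antagonist known for rising during myeloid maturation, was a low gene. Its libraries were at 1.71, 1.62 and 1.92 FPKM in control, 2.50, 2.33 and 2.17 FPKM with RANKL, and 1.58, 1.34 and 1.40 FPKM with RANKL + UD. The 3 groups did not overlap. RANKL was higher than control by 0.51 ± 0.12 (log2, SE; edgeR adjusted p = 0.000841), and RANKL + UD differed from RANKL by -0.78 ± 0.12 (adjusted p = 2.29e-05). The difference of RANKL + UD from control, -0.27 ± 0.12, did not pass (adjusted p = 0.0662). It passed without RANKL + UD library 1, at -0.35 and an adjusted p of 0.0409.

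Mnt (ENSMUSG00000000282, chromosome 11, 74721746 to 74736551, plus strand), the broadly expressed antagonist of MYC whose promoter holds an E-box, was at 7.87, 7.50 and 8.96 FPKM in control. It was at 9.26, 8.92 and 8.53 FPKM with RANKL and at 5.79, 6.27 and 5.48 FPKM with RANKL + UD. On FPKM, which lacks the TMM scaling of the tests, the RANKL + UD libraries lay below all others, while control and RANKL overlapped. RANKL + UD differed from RANKL by -0.69 ± 0.08 (log2, SE; edgeR adjusted p = 1.45e-06) and from control by -0.47 ± 0.09 (adjusted p = 8.89e-05). The difference of RANKL from control, 0.22 ± 0.08 (adjusted p = 0.0248), was lost in 7 of 17 alternatives. These were total counts (0.14, adjusted p = 0.166), limma on log2(FPKM + 1) (0.12, adjusted p = 0.168) and on log2(FPKM + 0.1) (0.14, adjusted p = 0.174), and the fits without control library 1 (adjusted p = 0.067) or 2 (0.132), or RANKL library 1 (0.0863) or 2 (0.0566).

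Mxd4 (ENSMUSG00000037235, chromosome 5, 34331227 to 34345064, minus strand), an MXD gene found in resting and differentiated cells and the other with an E-box, was at 4.59, 4.50 and 3.90 FPKM in control and 3.54, 3.80 and 4.44 FPKM with RANKL. With RANKL + UD it was at 3.29, 2.82 and 3.34 FPKM. Control and RANKL overlapped, and the RANKL + UD libraries were below both. RANKL against control gave -0.06 (95% interval -0.25 to 0.13, edgeR adjusted p = 0.64). RANKL + UD differed from RANKL by -0.40 ± 0.10 (log2, SE; adjusted p = 0.00281) and from control by -0.46 ± 0.10 (adjusted p = 0.000514). The difference from RANKL missed the threshold with limma on log2(FPKM + 1), at -0.25 and an adjusted p of 0.0583, and on log2(FPKM + 0.1), at -0.31 and an adjusted p of 0.0561.

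Mxd3 (ENSMUSG00000021485, chromosome 13, 55472981 to 55477636, minus strand), the MXD gene tied to dividing cells, was near the floor. It was at 0.20, 0.58 and 0.32 FPKM in control, 0.04, 0.15 and 0.37 FPKM with RANKL and 0.15, 0.36 and 0.22 FPKM with RANKL + UD, from 2 to 27 reads a library. The groups overlapped, and the gene did not pass the expression filter. With no filter, RANKL against control gave -0.85 ± 0.56 (log2, SE; edgeR adjusted p = 0.298), RANKL + UD against RANKL 0.26 ± 0.59 (adjusted p = 0.86) and RANKL + UD against control -0.59 ± 0.55 (adjusted p = 0.515), so no difference was detectable at this depth. Mxd3 shares 105 bases with Prelid1 on the opposite strand, which reached 91.43 FPKM, and whether the counting used the strand is not given in the sources used here.

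Mga (ENSMUSG00000033943, chromosome 2, 119727709 to 119800062, plus strand) was at 12.38, 11.97 and 11.19 FPKM in control, 13.03, 12.14 and 9.83 FPKM with RANKL and 13.35, 14.10 and 13.39 FPKM with RANKL + UD. The RANKL + UD libraries were the highest, and control and RANKL overlapped. RANKL + UD against control gave 0.20 ± 0.07 (log2, SE; edgeR adjusted p = 0.0243), a call lost without control library 2 (adjusted p = 0.0546), control library 3 (0.0758) or RANKL + UD library 2 (0.0896), and with limma on log2(FPKM + 1) (0.105) or log2(FPKM + 0.1) (0.108). RANKL + UD against RANKL gave 0.14 ± 0.07 (adjusted p = 0.15), which passed on total counts (0.22, adjusted p = 0.0173) and without RANKL library 1 (0.22, adjusted p = 0.0192). RANKL against control gave 0.07 ± 0.07 (adjusted p = 0.465) and passed without RANKL library 3 (0.17, adjusted p = 0.00964). On FPKM, no RANKL + UD library of Mga was below a RANKL library. None of Mxd1, Mxd4, Mxi1 or Mnt had a RANKL + UD library above a RANKL library. The share of all genes tested that separated in this way was not counted, and 20.2% were called lower by edgeR. FPKM lacks the TMM scaling, by which the Mga difference did not pass.

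Set in order of FPKM, the members ran Max, Mxi1, Mga, Mnt, Mxd4, Mxd1, Myc and Mxd3 in control, and the libraries of neighbours in this order did not overlap. With RANKL, Myc moved from the seventh place to the first and the other genes kept their order, again with no overlap between neighbours. With RANKL + UD the order was Max, Myc, Mga, Mxi1, Mnt, Mxd4, Mxd1 and Mxd3, and only Myc and Mga overlapped. The level of Myc per summed level of Mxd1, Mxd3, Mxd4, Mxi1 and Mnt was 0.0273 ± 0.00346 in control (ratio of FPKM, SD, n = 3). It was 1.13 ± 0.0144 with RANKL, and adding UD gave 0.651 ± 0.0251. The summed level of these 5 antagonists was 28.3 ± 2.03, 32.0 ± 0.717 and 21.5 ± 0.444 FPKM. Neither measure overlapped between groups, and 3 against 3 libraries cannot give an exact two-sided permutation p under 0.1.

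Mycn ran against Myc across the groups, and Mycl was raised with RANKL as Myc was. Mycn (ENSMUSG00000037169, chromosome 12, 12986094 to 12991915, minus strand), best known from nervous tissue and neuroblastoma, was the more abundant MYC gene in all 9 libraries. It was at 104.70, 103.68 and 123.80 FPKM in control, 58.94, 62.01 and 61.88 FPKM with RANKL and 77.02, 77.88 and 77.45 FPKM with RANKL + UD, with no overlap. RANKL differed from control by -0.77 ± 0.06 (log2, SE; edgeR adjusted p = 2.46e-10), RANKL + UD from RANKL by 0.26 ± 0.06 (adjusted p = 0.00129) and RANKL + UD from control by -0.51 ± 0.06 (adjusted p = 1.54e-07). Mycl (ENSMUSG00000028654, chromosome 4, 122889445 to 122896278, plus strand) had no read in control. It was at 1.47, 1.61 and 1.74 FPKM with RANKL and 1.50, 1.09 and 1.59 FPKM with RANKL + UD. Against a floor of 3 reads per control library it was at least 31.6-fold higher with RANKL and at least 23.4-fold higher with RANKL + UD, and it passed the filter only through these libraries. The RANKL and RANKL + UD libraries overlapped for Mycl (log2 difference -0.29, 95% interval -0.67 to 0.09, adjusted p = 0.267).

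Added together, Myc, Mycn and Mycl came to 111.5 ± 11.3 FPKM (SD, n = 3 libraries) in control. The sum was 98.8 ± 2.28 with RANKL and 92.9 ± 0.615 when UD was added, and so moved far less than Myc. Myc made up 0.693 ± 0.0963% of it in control, 36.7 ± 0.966% with RANKL and 15.1 ± 0.766% once UD was added. Mycn made up 99.3, 61.7 and 83.4% in the same order. Per summed level of the 5 antagonists, the 3 MYC genes stood at 3.94 ± 0.138, 3.09 ± 0.0432 and 4.32 ± 0.0685. This ratio was lowest with RANKL, whereas the ratio of Myc alone was highest there. Max was at 0.211 ± 0.0228, 0.214 ± 0.0125 and 0.250 ± 0.0163 per summed level of the MYC genes, the antagonists and Mga.

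**Figure D3:**
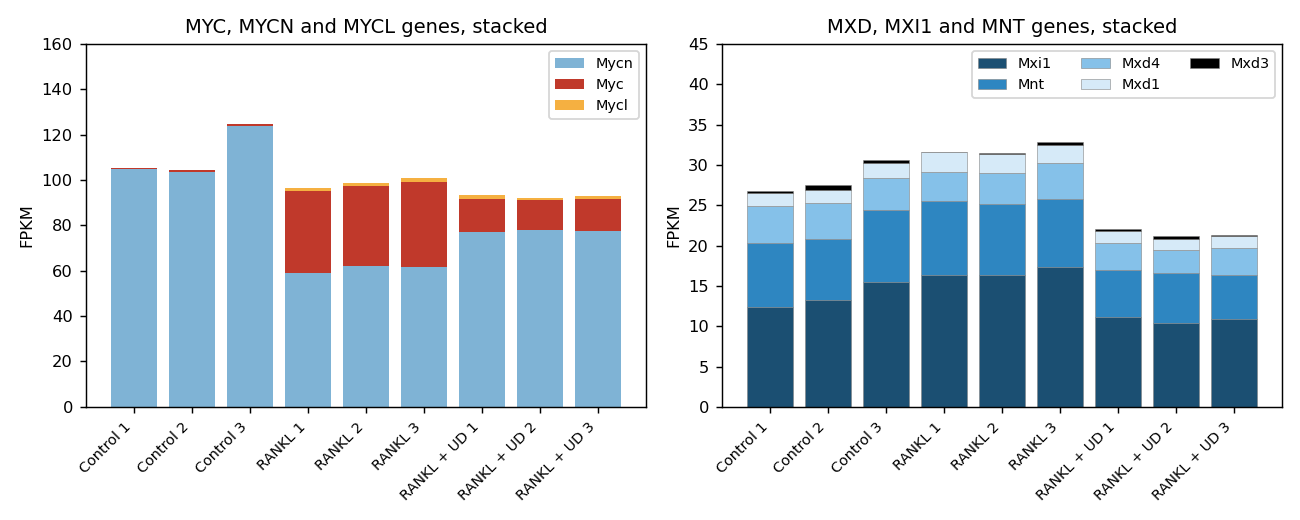
Stacked FPKM (y axis, from 0) of Mycn, Myc and Mycl (left) and of Mxi1, Mnt, Mxd4, Mxd1 and Mxd3 (right) in each of the 9 libraries (x axis); each bar is a single library and carries no error bar. The MYC sum is mostly Mycn in control and holds 35.6 to 37.4% Myc with RANKL, and the antagonist sum is lowest, at 21.2 to 22.0 FPKM, with RANKL + UD.

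MLX is the other small partner in the network, and it pairs with MXD1, MXD4, MNT and the glucose-sensing Mondo factors MLXIP and MLXIPL. Mlx was at 19.48 to 21.58 FPKM in control, 22.80 to 23.81 with RANKL and 22.04 to 23.23 with RANKL + UD. It was higher in RANKL than in control by 0.29 ± 0.07 (log2, SE; edgeR adjusted p = 0.00106), while RANKL + UD against RANKL (-0.13, adjusted p = 0.136) did not pass. Its 385 bases shared with Psmc3ip lie on the opposite strand. Mlxip was at 9.86 to 11.61, 9.18 to 9.75 and 8.80 to 8.94 FPKM. Its difference of RANKL + UD from RANKL (-0.17, adjusted p = 0.0275) was lost in 8 of 17 alternatives, on total counts among them (-0.09, adjusted p = 0.27). Mlxipl reached at most 0.01 FPKM.

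The genes known as induced by MYC formed a list of 51, of which 49 were tested. In RANKL against control, 23 were called higher and 12 lower, beside 27.3% and 30.2% of all genes tested. The median log2 difference was 0.14 beside -0.03 over all genes. On total counts 19 were called higher and 16 lower, beside 2579 and 4421 of the 11995 genes tested. The all-gene median on total counts was -0.1156. Tfrc, the transferrin receptor that imports iron, was at 27.6 ± 0.275 FPKM in control and 124.8 ± 6.12 with RANKL (log2 difference 2.26 ± 0.05 SE, edgeR adjusted p = 2.28e-19). Log2 differences, with their SE where given, follow for the other genes. Large rises were those of the glycolytic enzymes Ldha (1.18 ± 0.05) and Hk2 (0.72 ± 0.05), the mitochondrial chaperone Hspe1 (0.65) and the nucleolar chaperone Npm1 (0.60 ± 0.05). The largest falls were those of the folate carrier Slc19a1 (-0.58), the pyrophosphatase Dctpp1 (-0.47 ± 0.16), the ribosome factors Tcof1 (-0.47) and Ppan (-0.32), and the cell cycle phosphatase Cdc25a (-0.36 ± 0.10). Genes of this list so moved in both directions, while Myc was 50.3-fold higher and the more abundant Mycn lower (-0.77). The part of either MYC gene in these differences was not tested.

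In RANKL + UD against RANKL, Myc was lower and Mycn higher. Of the 49, 22 were called higher and 6 lower, beside 18.6% and 20.2% of all genes. The median was 0.16 beside 0.0050. On total counts 34 were higher and 3 lower, beside 3350 and 1707 of the 11995 genes tested. The all-gene median on total counts was 0.0912. The largest rises were those of Dctpp1 (0.75 ± 0.16), Cdc25a (0.68 ± 0.09), the uracil glycosylase Ung (0.57 ± 0.11), the nucleoside diphosphate kinase Nme1 (0.51 ± 0.07) and Cad, the enzyme of the first steps of pyrimidine synthesis (0.44 ± 0.06). Those that fell were Hk2 (-0.51 ± 0.05), Ldha (-0.33 ± 0.05), Npm1 (-0.29 ± 0.05), the mitochondrial factor Tfb2m (-0.21), Tfrc (-0.19 ± 0.05) and the helicase Eif4a1 (-0.18). Odc1, the polyamine enzyme long used as a MYC target, was at 45.35 to 50.70 FPKM in control, 43.82 to 45.93 with RANKL and 47.63 to 51.57 with RANKL + UD, and did not pass in any comparison. Against control, RANKL + UD had 35 higher and 3 lower, beside 26.7% and 27.3% of all genes, with a median of 0.28 beside -0.0021.

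A list of 11 genes known as lowered by MYC had 7 tested. In RANKL against control 4 were called higher and 3 lower, beside 27.3% and 30.2% of all genes (median 0.17 beside -0.03). On total counts 2 were called higher and 3 lower, beside 2579 and 4421 of the 11995 genes tested. The largest rises were those of the growth arrest genes Gadd45b (0.80 ± 0.12) and Gadd45a (0.79 ± 0.18), and the falls those of the myeloid factor Cebpa (-1.41 ± 0.11), the cyclin-dependent kinase inhibitor Cdkn1a (-0.35 ± 0.06) and Ndrg2 (-0.20). With UD against RANKL, 0 were called higher and 3 lower, beside 18.6% and 20.2% of all genes (median -0.14 beside 0.0050), and at an unadjusted p under 0.05, by DESeq2 and by limma the count of higher genes was also 0. Gadd45a was at 4.49, 4.93 and 4.76 FPKM with RANKL and 1.38, 1.25 and 0.75 with RANKL + UD (log2 difference -2.14 ± 0.21 SE, edgeR adjusted p = 6.33e-08). Ndrg1, a gene raised by hypoxia and metal loss, was at 49.34, 50.38 and 50.22 FPKM with RANKL and 13.87, 13.53 and 13.39 with RANKL + UD (log2 difference -1.96 ± 0.05 SE, adjusted p = 2.09e-17). The third was Gadd45b (-0.67 ± 0.12). Against control, 0 were called higher with RANKL + UD by edgeR, DESeq2, limma and at an unadjusted p under 0.05, and 5 lower, with a median of -0.41, beside 26.7% and 27.3% of all genes and a median of -0.0021.

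**Figure D4:**
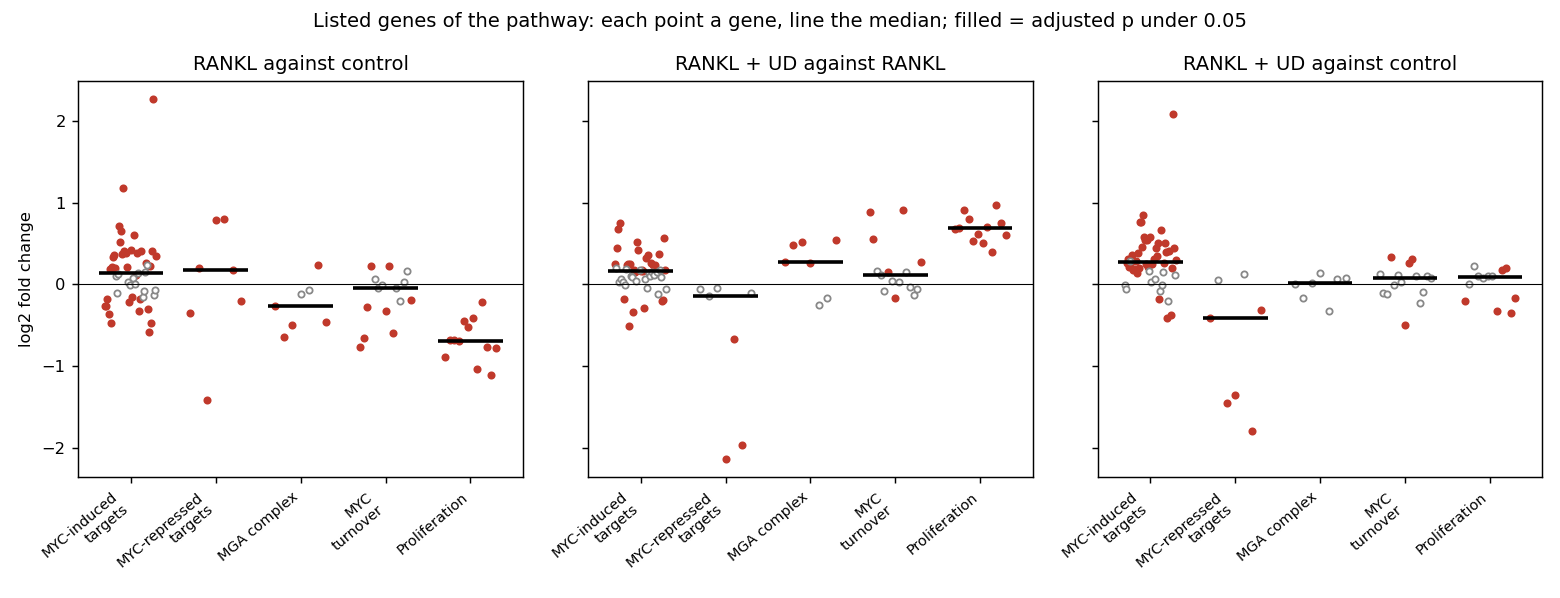
Fitted log2 difference (y axis) of each tested gene of 5 lists (x axis) in 3 comparisons; points are genes, filled where edgeR's adjusted p was under 0.05, and lines are list medians. In the middle panel the 12 proliferation genes lie above 0 with a median of 0.69, and the MYC-induced targets spread on both sides of 0 with a median of 0.16.

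The cofactors were measured too. Their counts stand beside 27.3% of all genes called higher and 30.2% lower in RANKL against control, 18.6% and 20.2% in RANKL + UD against RANKL, and 26.7% and 27.3% in RANKL + UD against control, with medians over all genes of -0.03, 0.0050 and -0.0021. On total counts, 2579 and 4421, 3350 and 1707, and 3177 and 3288 of the 11995 genes tested were called higher and lower. Of 11 cofactors of MYC, such as the acetyltransferase scaffold Trrap, 2 were called higher and 4 lower in RANKL against control (median -0.12), and 4 higher and 0 lower in RANKL + UD against RANKL (median 0.07). On total counts these were 0 and 7, and 5 and 0. DESeq2, limma and an unadjusted p under 0.05 also gave 0 lower with UD. Kat2a, an acetyltransferase, differed by -0.36 in RANKL against control and by 0.36 in RANKL + UD against RANKL. Hcfc1, a docking protein of MYC, differed by -0.27 and 0.29. These comparisons share the RANKL libraries, so their values are not independent. Against control, 2 were higher and 1 lower with RANKL + UD (median 0.0037). Of 10 corepressor genes of the SIN3 and NCOR complexes, 3 were called higher and 2 lower in both comparisons (medians -0.01 and -0.0054). On total counts these were 3 and 4, and 4 and 1, and by limma on log2(FPKM + 1) 3 and 3, and 4 and 1. In RANKL against control, Sin3b (0.42), Hdac2 (0.39) and Sap30 (0.27) were higher, and Rbbp7 (-0.20) and Sin3a (-0.15) lower. Sap30, a SIN3 subunit, was at 64.06, 64.70 and 68.42 FPKM with RANKL and 46.08, 42.05 and 44.33 with RANKL + UD (log2 difference -0.66 ± 0.06 SE, edgeR adjusted p = 7.01e-08). The histone-binding subunit Rbbp7 differed by 0.57 ± 0.05 in the same comparison. Hdac1 (0.23, adjusted p = 0.0159) and Rbbp4 (0.13, adjusted p = 0.0388) were also called higher there by edgeR. By DESeq2 the Rbbp4 call was lost (adjusted p = 0.0552). The scaffold Sin3b differed by -0.22 ± 0.09 and only just passed (edgeR adjusted p = 0.0492), and this was lost on total counts (-0.13, adjusted p = 0.227) and by limma on log2(FPKM + 1) (-0.11, adjusted p = 0.289) and log2(FPKM + 0.1) (-0.13, adjusted p = 0.299). Against control, RANKL + UD had 4 corepressor genes higher and 1 lower (median 0.08), and by limma on log2(FPKM + 1) 2 and 1.

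The partners of MGA in its polycomb complex formed a list of 7. Of these, 1 was called higher and 4 lower in RANKL against control (median -0.26), beside 27.3% and 30.2% of all genes. In RANKL + UD against RANKL 5 were higher and 0 lower (median 0.27), beside 18.6% and 20.2%. In the second, 1 was lower at an unadjusted p under 0.05, 1 by DESeq2 and 0 by limma. In RANKL + UD against control edgeR, DESeq2 and limma called 0 in either direction (median 0.01), beside 26.7% and 27.3% of all genes by edgeR, which had 0 higher and 2 lower at an unadjusted p under 0.05. On total counts the calls were 0 higher and 5 lower, 5 and 0, and 0 and 1. Of the 11995 genes tested, total counts gave 2579 and 4421, 3350 and 1707, and 3177 and 3288. E2f6, a repressing E2F, was at 8.01, 8.12 and 8.55 FPKM in control, 4.73, 4.91 and 5.20 with RANKL and 7.45, 6.92 and 7.68 with RANKL + UD. Its log2 difference in RANKL against control was -0.65 ± 0.08 (SE, edgeR adjusted p = 2.38e-07). In RANKL + UD against RANKL it was 0.49 ± 0.08 (adjusted p = 3.05e-05). L3mbtl2 (-0.50 and 0.51), the E2F partner Tfdp1 (-0.46 and 0.54) and Cbx3 (-0.26 and 0.27) were likewise lower with RANKL and higher with UD. Pcgf6 (0.26) was higher with UD. Both comparisons share the RANKL libraries, so their values are not independent.

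Of 15 genes that set how long the MYC protein lasts, 2 were called higher and 6 lower in RANKL against control (median -0.05), beside 27.3% and 30.2% of all genes. With UD against RANKL 5 were higher and 1 lower (median 0.11), beside 18.6% and 20.2%, and against control 3 were higher and 1 lower (median 0.08), beside 26.7% and 27.3%. On total counts these were 1 and 7, 7 and 0, and 3 and 1. Of the 11995 genes tested, total counts gave 2579 and 4421, 3350 and 1707, and 3177 and 3288. The list was not split by whether a gene lengthens or shortens that life, so its counts and medians give no direction for MYC. Fbxw7, which marks phosphorylated MYC for destruction, was lower with RANKL (-0.28), and so was Ppp2r5a, a phosphatase subunit acting on MYC (-0.33). Set (0.23) and Gsk3a (0.22) were the 2 called higher with RANKL. Skp2, a ubiquitin ligase subunit, was at 4.93 to 5.48 FPKM in control, 3.08 to 3.44 with RANKL and 6.29 to 6.70 with RANKL + UD. Its log2 differences were -0.60 ± 0.08 in RANKL against control and 0.91 ± 0.08 in RANKL + UD against RANKL (SE). The kinase Aurka (-0.76 and 0.89) and the phosphatase inhibitor Cip2a (-0.66 and 0.55) ran the same way. Values of the 2 comparisons are not independent, because both use the RANKL libraries. These are RNA levels, and MYC protein was not measured in these files.

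A list of 12 proliferation genes was measured beside these. All 12, Mki67 and Tk1 among them, were called lower in RANKL than in control (median -0.69), beside 30.2% of all genes (median -0.03). With UD against RANKL all 12 were called higher (median 0.69), beside 18.6% of all genes (median 0.005). Both counts were the same on total counts, where 4421 of the 11995 genes tested were lower with RANKL and 3350 higher with UD. The comparisons share the RANKL libraries, so their values are not independent. Against control, 2 were higher and 4 lower with RANKL + UD (median 0.09), beside 26.7% and 27.3% of all genes (median -0.0021). Mki67 was at 100.32 to 113.46 FPKM in control, 42.39 to 52.19 with RANKL and 82.30 to 85.66 with RANKL + UD. Among the groups, the proliferation genes were lowest with RANKL, where Myc was highest and Mycn lowest. The part of this difference in the values of Skp2, Aurka, Cip2a, Cdc25a and the MGA partners was not tested.

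Across the 9 libraries, the genes whose levels ran most like a member were taken by Pearson's r of log2(FPKM + 1). The libraries fall into 3 groups, so r mostly describes the group levels, and no p is given. For Myc they were Plau, Eya3, Npl, Layn and Serpinb6b (r of 0.998 to 0.999), of which 2 stayed among the nearest 5 with a pseudocount of 0.1 and 0 with Spearman's rank. For Mxi1 they were Sap30, Cyb5r1, Cd37, Usp22 and Wipi2 (0.973 to 0.979). For Mxd1 they were Dop1b, Cast, Tax1bp1, Cttnbp2nl and Atp6v0a1 (0.966 to 0.993). For Mnt they were Clip1, Gpcpd1, Dock8, Iqgap1 and Sugt1 (0.962 to 0.969), and for Mxd4 Gnb5, Rbm7, Insig2, Atf5 and Rpl7a (0.928 to 0.937). Of the 5 genes named, 5 stayed for Mxi1, 5 for Mxd1, 3 for Mnt and 3 for Mxd4 with the pseudocount of 0.1. With Spearman's rank 1, 3, 3 and 0 stayed, so most of these names depend on the measure.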

How the data were processed

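RNA of RAW264.7 cells was measured in 9 libraries, 3 per group, grouped by their labels. In the deposited table the RANKL libraries carry the name the study uses for its model group, and all 18 value columns were mapped. The authors deposited raw counts, whole reads per gene. They also deposited FPKM, which equals the count divided by exonic length and library total. The labels name the build mm10, but 0 of the 8 members have the coordinates of the GRCm38 annotation, so the build of the gene spans is not settled. The aligner and counter are not given in the sources used here.

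Counts were tested with edgeR 4.0.16 in R 4.3.3, with TMM scaling, all 9 libraries in a single quasi-likelihood fit and Benjamini-Hochberg adjustment over the 11995 genes that reached 1 FPKM in 3 or more libraries. SE is the log2 difference divided by the root of F, and 95% intervals are normal intervals from it. Alternatives were DESeq2 1.42.0, limma 3.58.1 on log2(FPKM + 1) or log2(FPKM + 0.1), RLE size factors, total counts, no filter, the 6 libraries of a comparison alone, the replicate number as a block and each library left out in turn. The procedure was tested on simulated data in which far fewer genes differed than here, with as many raised as lowered. That does not check the scaling between groups.

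Members and lists were chosen with earlier results of these data known. All members and 5 related factors are named. Genes of each list were named from those called and not overlapping, and not every such gene is named. The choice was among up to 5 genes with the largest rise or fall in RANKL against control or RANKL + UD against RANKL. Odc1, Eif4a1 and the markers Adgre1, Lyz2, Cd68 and Acp5 were named after their values were seen. Libraries of a group differed by more than sampling noise (chi-square per degree of freedom 2.83 to 8.22), so none were merged. The labels do not say whether replicates were separate cultures, and p-values then measure only the spread between these libraries. Floors of 3 reads cover counting error only. No batch is given.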

Additional observations from a re-analysis of the deposited data

How the results depend on the processing

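Over 21 member differences and 17 alternatives, 339 of 357 values kept their side of the threshold, 14 lost the call, 4 gained it and 0 called values turned in sign. Values that were not called turned in sign for Max in 4, 7 and 2 settings, and in RANKL against control for Mga in 4 and Mxd4 in 1. Same-numbered libraries deviated together with correlations of -0.03 to 0.097 over 9 pairs. Those of different number gave -0.102 to 0.064 over 18 pairs. The pairs of replicate 1 were at 0.097, 0.089 and 0.075, so whether the numbers pair the libraries is not settled by this check. With the replicate block, the calls for members were 4 higher and 0 lower, 0 and 5, and 2 and 3 in RANKL against control, RANKL + UD against RANKL and RANKL + UD against control, and all genes higher in RANKL + UD against RANKL went from 2233 to 2347. By limma with either pseudocount and on total counts, MYC-repressed targets higher with RANKL went from 4 to 2, and MYC-induced targets lower in RANKL + UD than in RANKL from 6 to 3. On total counts, MYC-induced targets higher in RANKL + UD than in RANKL went from 22 to 34, and members higher there from 0 to 1 (Mga). Leaving out each library in turn, that member count was 0 to 1, with 1 only without RANKL library 1. Members higher in RANKL + UD than in control went from 2 to 1 by limma with either pseudocount, and ranged from 1 to 2 with a library left out. The count of 1 came without control library 2, control library 3 or RANKL + UD library 2. All genes higher in RANKL + UD against RANKL went from 2233 to 3350 on total counts, and all genes lower from 2418 to 1556 and 1536 by limma with pseudocounts of 1 and 0.1. Apart from the scaling and test named, the cause was not tested. Depth limits Mxd3 (2 to 27 reads) and Myc and Mycl in control.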
